A study of Mus musculus with 12 samples.

Results

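The genes described here are Id1, Id2, Id3 and Id4, the inhibitory SMAD genes Smad6 and Smad7, and the ligand genes Bmp4, Bmp7, Tgfb1 and Tgfb2. They make up 10 of the 52015 genes measured, and all 10 were found by gene name in the deposited FPKM values (fragments mapped to a gene, scaled to its length and to all mapped reads). They were selected on a measured value, the higher level of Id3 in isotonic knockout cells, so the isotonic knockout comparison is given below as a description without a test. 8 of the 10 reached 0.5 FPKM in at least 1 group, and Id4 and Bmp4 did not.

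RNA-seq was done on 12 libraries of mpkCCD cells, a mouse cell line from cortical collecting duct principal cells. Scr cells carried a scramble gRNA with no target and are labelled WT, and Nfat5-KO cells came from 2 CRISPR/Cas9 clones, N1 and N3, that lack NFAT5, the transcription factor that responds to high tonicity. Cells were kept for 5 days at 300 mosmol/kg (isotonic) or at 600 mosmol/kg (hypertonic, with 100 mM NaCl and 100 mM urea added), which gave Scr_300 and Scr_600 with 2 libraries each and Nfat5-KO_300 and Nfat5-KO_600 with 4 libraries each. The deposited file holds 1 value per gene and group, the arithmetic mean of the libraries, as its values themselves show. Differences between the knockout clones cannot be told apart from the loss of NFAT5, since the clones are the knockout.

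The number of reads behind the values was recovered from the smallest steps of the FPKM values. The effective library sizes were about 29340000 to 37510000 reads. Whole reads per library were solved for 91.6% of the genes above 0 in Scr_300 and for 91.5% in Scr_600, which gives the spread between the 2 Scr libraries of each group. Below they are called library a (the larger) and library b, and which replicate number each one has is not known. The 4 knockout libraries of a group could not be separated, so knockout values are group means without a spread, and no knockout comparison has a test here. The study itself tested Nfat5-KO against Scr cells at both osmolalities with DESeq2, and those results are not used here. The targeted gene Nfat5 had 3.47 FPKM in Nfat5-KO_300 against 5.61 FPKM in Scr_300, and 6.88 FPKM in Nfat5-KO_600 against 7.93 FPKM in Scr_600. A level per gene does not read the edit itself, and the Nfat5 RNA does not show whether the protein was lost.

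Among the markers of principal cells, 7 of 14 reached 0.5 FPKM. Their summed level was 813 to 1232 FPKM per group, most of it from the keratin genes, with Krt18 at up to 738 FPKM. The water channel gene Aqp2 was at 0 FPKM in Scr_300 and at 0.245 FPKM in Scr_600, so this defining marker was absent or nearly so. Of the fibroblast markers 0 of 7 and of the endothelial markers 0 of 6 reached 0.5 FPKM, and Col1a2 and Lum were listed at 0 in every group. The proximal tubule markers summed to 0.0681 FPKM in Scr_300, 0.0518 in Scr_600, 0.37 in Nfat5-KO_300 and 1.24 in Nfat5-KO_600, and the highest was the endocytic receptor Lrp2 at 1.07 FPKM in Nfat5-KO_600. Of the intercalated cell markers 1 of 6 reached 0.5 FPKM (summed level 1.4 to 1.96 FPKM), with Foxi1 and Atp6v0d2 listed at 0. Of the immune cell markers 2 of 5 did. They summed to 5.94 FPKM in Scr_300, 5.07 in Scr_600, 3 in Nfat5-KO_300 and 3.1 in Nfat5-KO_600, and Cd3e was listed at 0 in every group. The proximal tubule sum was thus higher and the immune sum lower in both knockout groups. The principal cell sum, mostly keratins, moved mainly with osmolality (1232 FPKM in Scr_300 and 1186 in Nfat5-KO_300, 896 in Scr_600 and 813 in Nfat5-KO_600). Of the 7 markers, Gata3 was at least 2-fold higher in knockout cells at 300 mosmol/kg, beside 1.73% of all genes. At 600 mosmol/kg Gata3 and Scnn1a were, beside 3.76%, and 0 were 2-fold lower at either osmolality. Scnn1a had 0.769 and 1.86 FPKM in the Scr_600 libraries and 7.035 FPKM in Nfat5-KO_600. The part of these lists in the results below was not tested.

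ID proteins are helix-loop-helix proteins without a DNA-binding region. They pair with E proteins such as those encoded by Tcf3 and Tcf12 and keep them off DNA, which generally holds back differentiation. BMP ligands bind receptor kinases that phosphorylate SMAD1, SMAD5 and SMAD9, and these enter the nucleus with SMAD4 and switch on Id1, Id2 and Id3, which are among the best known BMP targets. TGF-beta ligands act in the same manner through SMAD2 and SMAD3. SMAD6 and SMAD7 are induced by these signals and shut them down. In the kidney, BMP7 is needed for development and is known for opposing fibrosis, while TGF-beta is known for driving it.

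RefSeq promoter entries (GRCm38.p6, 250 bases before to 50 after the start) were used for 7 of 10 genes, all but Id1, Smad7 and Bmp7. They were searched on both strands for GTCTAGAC (palindromic SMAD-binding element), GGCGCC (GC-rich SMAD-binding element), CAGACA (a SMAD3-binding box of TGF-beta targets) and TGGAAA (the core of the tonicity-responsive enhancer bound by NFAT5). Of 32851 promoters of this length, 0.213% hold the palindrome, 11.9% the GC-rich element, 21% the SMAD3 box and 21.4% the core of the tonicity-responsive enhancer. The palindrome occurs in the Smad6 window from 4 bases before to 4 after the start. The GC-rich element occurs in the windows of Id2 and Id4, and both the SMAD3 box and the tonicity core in that of Tgfb2. Those of Id3, Tgfb1 and Bmp4 hold none of the 4 motifs, and the Id3 window lies inside an exon of GENCODE M21 over all 300 of its bases, so that sequence upstream of the longer Id3 transcript was not searched. A match is a description of the letters and not a bound site. The stretches of Smad6, Id2 and Tgfb2 are shown because they carry these matches in genes with the values below, 5′ to 3′ on the minus strand of the genome, with the matches in capitals (in Tgfb2 the second match, the tonicity core, is read on the other strand). They lie at chr9:64022050-64022159 (Smad6, 100 bases before to 10 after the start), chr12:25096306-25096335 (Id2, 243 to 214 bases before the RefSeq start) and chr1:186706114-186706203 (Tgfb2, 214 to 125 bases before the start), and only the last 10 bases of the Smad6 stretch are exonic in GENCODE M21. The Id2 stretch lies inside the GENCODE gene (chr12:25093799-25097140, minus strand), which starts upstream of the RefSeq start used, and 211 of the 300 bases of the Id2 window are exonic there.

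Smad6: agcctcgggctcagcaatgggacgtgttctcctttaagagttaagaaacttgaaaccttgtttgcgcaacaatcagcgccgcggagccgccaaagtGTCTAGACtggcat

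Id2: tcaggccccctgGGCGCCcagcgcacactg

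Tgfb2: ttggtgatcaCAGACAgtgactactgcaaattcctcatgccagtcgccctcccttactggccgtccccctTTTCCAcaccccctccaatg

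Id3 was higher in the knockout groups at both osmolalities. Id3 (chr4:136143497-136145755, plus strand) had 10.2 FPKM in library a and 6.01 FPKM in library b of Scr_300, from 659 and 344 reads. In Scr_600 it had 7.41 FPKM in library a and 17.8 FPKM in library b, from 493 and 1121 reads. The knockout group means, isotonic then hypertonic, were 34.5 and 49.9 FPKM, from about 7738 and 12555 reads. Both knockout means lay above all 4 Scr libraries, while the Scr groups overlapped each other. In bulk RNA, more cells that express a gene and more of its RNA per cell cannot be told apart.

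The mean of Nfat5-KO_300 was 4.25 times that of Scr_300 in FPKM and 3.37 times the higher Scr_300 library. Here and below such ratios are of FPKM as deposited, while log2 ratios, and the counts of at least 2-fold changes, are of FPKM + 0.1, which makes them slightly smaller in size (log2 ratio 2.07 for Id3). This is the value the selection rests on, and by it 35 of 12704 genes stood above Id3, or 17 when only genes with at least 0.1 FPKM in both groups were ranked. In the latter ranking the genes just above it were Klk10 (log2 ratio 2.08) and Hsd11b2 (2.09), and those just below it were Tmem213 (2.07) and Serpinb9b (2.06). At 600 mosmol/kg the ratio was 3.95 (log2 ratio 1.98), or 2.8 times the higher Scr_600 library. The selection did not use these libraries, but they came from the same knockout clones and the same Scr cells. The Scr libraries themselves differed 1.71-fold for Id3 in Scr_300 and 2.4-fold in Scr_600. Of the genes with reads solved and at least 0.5 FPKM in the group, 5.66% were at least as far apart in Scr_300 and 2.75% in Scr_600. Among these genes, Id3 was thus one of the more variable between Scr cultures.

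Id1, a close relative of Id3 in sequence and targets, had the highest level of the 10 genes in Nfat5-KO_300. Id1 (chr2:152736251-152737410, plus strand) had 33.6 and 20.4 FPKM in the 2 Scr_300 libraries, 19.4 and 24.4 FPKM in the 2 Scr_600 libraries, and knockout means of 92.1 FPKM (isotonic) and 80.2 FPKM (hypertonic). Again both knockout means lay above every Scr library. The ratio was 3.42 at 300 mosmol/kg (log2 ratio 1.77; 2.75 times the higher Scr library) and 3.66 at 600 mosmol/kg (log2 ratio 1.87; 3.28 times the higher Scr library).

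Id2, which is co-expressed with Id1 and Id3 in many tissues, was the ID gene with the highest level in Scr cells, with 34.8 and 50 FPKM in the Scr_300 libraries and 33.6 and 35.1 FPKM in the Scr_600 libraries. Its knockout means were 74.3 FPKM (isotonic) and 82 FPKM (hypertonic). The knockout ratio was 1.75 at 300 mosmol/kg (log2 ratio 0.81) and 2.38 at 600 mosmol/kg (log2 ratio 1.25), so that Id2 passed the 2-fold line at 600 mosmol/kg. In Scr cells the order of levels was Id2, Id1 and Id3 in each group, and in Nfat5-KO_300 it was Id1, Id2 and Id3. In Nfat5-KO_600 the order was that of Scr cells, with Id2 and Id1 close together at 82 and 80.2 FPKM. The lower Id2 library and the higher Id1 library of Scr_300 lay close together, at 34.8 and 33.6 FPKM.

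Id4, the family member best known from the nervous system and mammary gland, was not expressed at a level that could be compared. It had 1 read in Scr_300 and 2 reads in Scr_600, and it was listed at 0 in both knockout groups. A count of 0 allows a level of up to 0.00622 FPKM in the isotonic and 0.00555 FPKM in the hypertonic knockout group (3 reads in the group, counting error only).

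**Figure D1:**
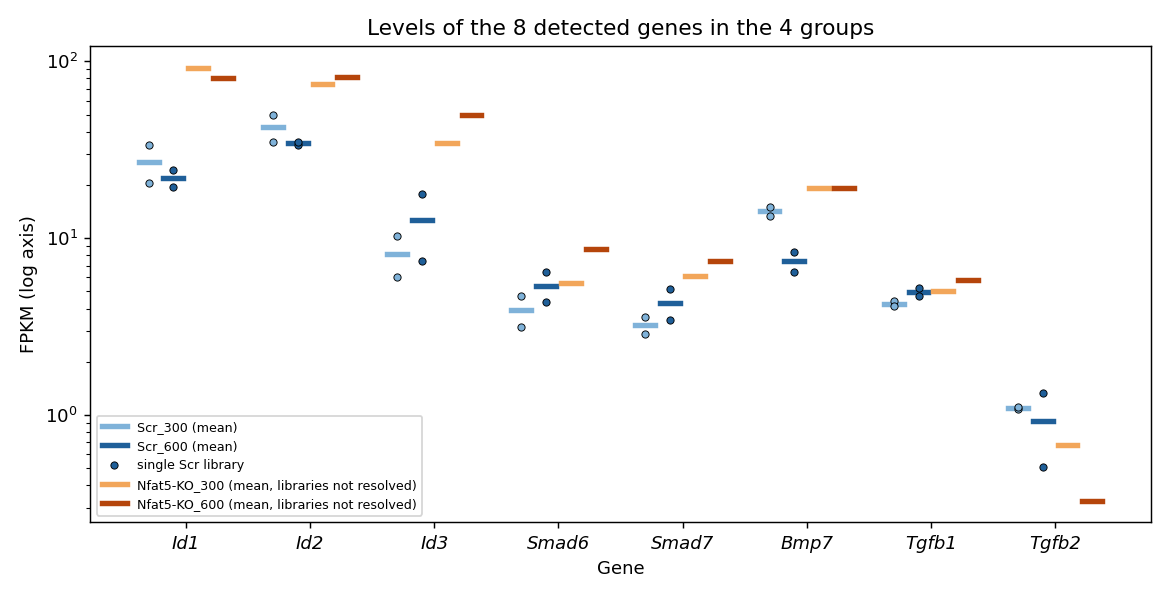
Level (FPKM, log axis) of the 8 genes that reached 0.5 FPKM. Lines are the group means deposited by the authors and points the single Scr libraries; for Id1, Id2 and Id3 both knockout lines lie above every Scr point, and for Tgfb2 the Nfat5-KO_600 line at 0.329 FPKM lies below every Scr point.

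Smad7 and Smad6 encode the inhibitors that SMAD signals induce against themselves, and both had higher means in the knockout groups, by less than 2-fold. Smad7 had 2.86 and 3.57 FPKM in the Scr_300 libraries, 5.15 and 3.46 FPKM in the Scr_600 libraries, and knockout means of 6.07 FPKM (isotonic) and 7.43 FPKM (hypertonic). The ratio was 1.89 at 300 mosmol/kg (log2 ratio 0.90) and 1.72 at 600 mosmol/kg (log2 ratio 0.77), and each knockout mean lay above both Scr libraries of its osmolality. Over the 76 genes measured within 10 Mb of Smad7 on chromosome 18, the median log2 ratio was 0.25 in the isotonic and 0.16 in the hypertonic comparison, against 0.00 and -0.02 over all genes. The region around Smad7 therefore shifted the same way as Smad7, by a smaller amount, and its part in the Smad7 value was not tested.

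Smad6, which acts mainly on BMP signals, had 3.16 and 4.74 FPKM in the Scr_300 libraries and 4.33 and 6.4 FPKM in the Scr_600 libraries. The knockout means were 5.58 FPKM at 300 mosmol/kg and 8.71 FPKM at 600 mosmol/kg. The ratios were 1.41 (log2 ratio 0.49) and 1.62 (log2 ratio 0.69), and against the higher Scr library only 1.18 and 1.36. The Scr libraries differed 1.5-fold and 1.48-fold, so the Smad6 difference was of the size of the spread between Scr libraries at 300 mosmol/kg. In Nfat5-KO_300 Smad6 lay within the range of the Scr_600 libraries.

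Among the 4 ligand genes, Bmp7 had the highest level in every group. It had 13.4 and 15 FPKM in the Scr_300 libraries and 6.43 and 8.38 FPKM in the Scr_600 libraries. Its knockout means were 19.2 FPKM at 300 mosmol/kg and 19.3 FPKM at 600 mosmol/kg. Scr cells at 600 mosmol/kg thus had the lower Bmp7 level, with no overlap between the Scr groups, while the knockout means at the 2 osmolalities were nearly equal. The ratio of knockout to Scr was 1.35 at 300 mosmol/kg (log2 ratio 0.43) and 2.61 at 600 mosmol/kg (log2 ratio 1.37; 2.3 times the higher Scr_600 library). Bmp4, another kidney BMP ligand, was listed at 0 in all 4 groups, which allows levels of up to 0.0197 FPKM in Scr_300, 0.0185 in Scr_600, 0.0106 in Nfat5-KO_300 and 0.0095 in Nfat5-KO_600.

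Tgfb2 was the only one of the 8 genes with lower knockout means. It had 1.08 and 1.11 FPKM in the Scr_300 libraries and 0.507 and 1.34 FPKM in the Scr_600 libraries, from 109 and 272 reads in the latter. The knockout means were 0.674 FPKM at 300 mosmol/kg and 0.329 FPKM at 600 mosmol/kg, from about 489 and 267 reads in 4 libraries each. Both lay below the Scr libraries of their osmolality, and the Scr_600 libraries differed 2.64-fold. Scr_300 was 1.62 times Nfat5-KO_300 (log2 ratio -0.63 for knockout against Scr) and Scr_600 was 2.8 times Nfat5-KO_600 in FPKM. On the scale of FPKM + 0.1 the latter log2 ratio was -1.25 for knockout against Scr, a smaller difference because the levels are low. With a pseudocount of 1 in place of 0.1 the log2 ratio at 600 mosmol/kg was -0.53 and no longer 2-fold. The 106 genes within 10 Mb of Tgfb2 on chromosome 1 had median log2 ratios of -0.20 in the isotonic and -0.11 in the hypertonic comparison, and their part in the Tgfb2 value was not tested. The medians around Id1 and Id3 were 0.02 and -0.02 in the isotonic and -0.05 and -0.02 in the hypertonic comparison, where 0 of 166 neighbours had a ratio above that of Id1 and 2 of 227 above that of Id3.

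Tgfb1, the most widely expressed TGF-beta ligand, had 4.39 and 4.12 FPKM in the Scr_300 libraries, 5.21 and 4.69 FPKM in the Scr_600 libraries, and knockout means of 5.04 FPKM (isotonic) and 5.83 FPKM (hypertonic). The ratios of 1.18 at both osmolalities were small, yet the Scr libraries lay within 1.06-fold and 1.11-fold of each other, and each knockout mean was above both of them.

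At 300 mosmol/kg, 2 of the 8 genes (Id1 and Id3) were at least 2-fold higher in the knockout group, beside 1.73% of all genes, and 0 were at least 2-fold lower, beside 2.44%. As Id3 in this comparison chose the genes, nothing is read from these counts. At 600 mosmol/kg, 4 of 8 (Id1, Id2, Id3 and Bmp7) were at least 2-fold higher, beside 3.76% of all genes, and 1 of 8 (Tgfb2) was at least 2-fold lower, beside 3.68%. Taken against the higher of the 2 Scr libraries, the same 2 genes were at least 2-fold above it at 300 mosmol/kg (1.1% of all genes) and the same 4 at 600 mosmol/kg (2.5% of all genes). At each osmolality 7 of 8 lay above both Scr libraries, all but Tgfb2, beside 38.2% of all genes at 300 mosmol/kg and 36.5% at 600 mosmol/kg.

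**Figure D2:**
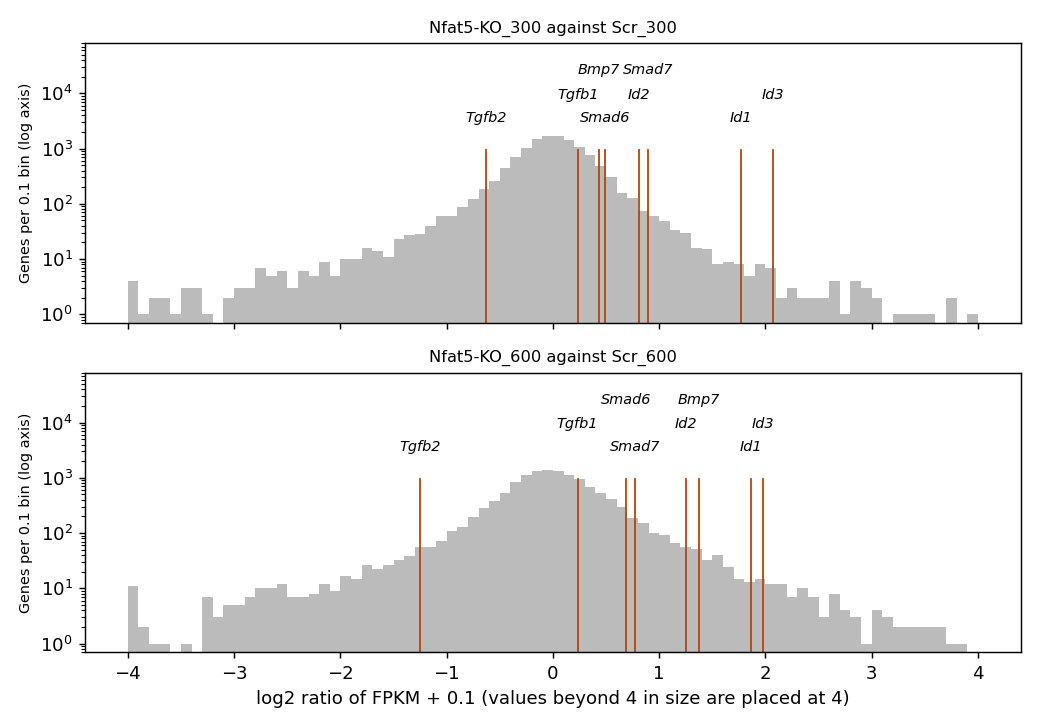
Number of genes (log axis) by log2 ratio of knockout to Scr, at 300 mosmol/kg (top, 12704 genes) and 600 mosmol/kg (bottom, 13063 genes), with vertical lines for the 8 genes. Id1 and Id3 lie in the right tail in both panels, at 1.77 and 2.07 and at 1.87 and 1.98, and Tgfb2 is the line left of 0.

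Outside the 10 genes, 106 genes of the pathway were listed by role (ligands, receptors, SMADs, inhibitors, antagonists, storage and activation of latent TGF-beta, target genes and partners of ID proteins). At 300 mosmol/kg 64 of them reached 0.5 FPKM, and the knockout group was at least 2-fold higher for 8 of these (1.73% of all genes) and lower for 1 (2.44% of all genes). At 600 mosmol/kg 64 reached it, and the corresponding numbers were 6 (3.76% of all genes) and 3 (3.68%). Bmp3 and Rgma at 300 mosmol/kg, and Rgma, Atoh8 and Snai1 at 600 mosmol/kg, were under 0.5 FPKM in the Scr group and were counted only through their higher knockout level, and Hey1 only through its higher Scr level. The median log2 ratio over the lists together was 0.06 and 0.13, against 0.00 and -0.02 over all genes.

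Of the 11 listed BMP targets 4 reached 0.5 FPKM at 300 mosmol/kg and 5 at 600 mosmol/kg. Gata3, a transcription factor of the collecting duct that is also one of the principal cell markers used here, had 3.67 and 3.15 FPKM in the Scr_300 libraries, 1.77 and 6.88 FPKM in the Scr_600 libraries, and knockout means of 11.8 FPKM (isotonic) and 30 FPKM (hypertonic). Its relative Gata2 had 3.59 and 3.04 FPKM in Scr_300, 3.7 and 5.52 FPKM in Scr_600, and 7.46 and 13.3 FPKM in the knockout groups. Both factors were thus above every Scr library in both knockout groups.

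The homeobox gene Msx2 had log2 ratios of 0.72 and 1.40 at the lower and higher osmolality. Atoh8, a helix-loop-helix factor, was at 0.0492 and 0.0445 FPKM in Scr_300 and Scr_600, too low for a ratio, and at 0.375 and 1.6 FPKM in Nfat5-KO_300 and Nfat5-KO_600. Hey1, which is also a Notch target, was lower in the knockout groups (log2 ratios -1.08 and -1.22), and its Scr_300 libraries were 1.08 and 0.46 FPKM beside a knockout mean of 0.312 FPKM. Bambi, Dlx3, Dlx5, Hamp, Msx1 and Smad9 stayed under 0.5 FPKM in every group. Of these, Dlx3 was lower in the isotonic knockout group, at 0.494 FPKM in Scr_300 and 0.187 FPKM in Nfat5-KO_300 (log2 ratio -1.05). At 600 mosmol/kg its log2 ratio was -0.08.

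Of the 17 listed TGF-beta targets, 11 reached 0.5 FPKM in each knockout comparison. At least 2-fold higher were 2 at 300 mosmol/kg (1.73% of all genes) and 1 at 600 mosmol/kg (3.76% of all genes). Pmepa1, a brake on TGF-beta signals, was higher at 300 mosmol/kg (log2 ratio 1.73) and had a log2 ratio of 0.27 at 600 mosmol/kg. Its Scr_300 libraries were far apart, at 1.44 and 3.6 FPKM, beside 8.6 FPKM in Nfat5-KO_300. The basement membrane collagen gene Col4a1 had log2 ratios of 1.30 and 0.73, and Snai1, a repressor of epithelial genes, 0.98 and 1.01. Other targets on the list, among them Ctgf (-0.37 and -0.83), Cdkn1a (0.08 and 0.55) and Cdkn2b (-0.65 and -0.36), were within 2-fold.

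Of 16 receptors and co-receptors 11 reached 0.5 FPKM, and the co-receptor gene Rgma was at least 2-fold higher at both osmolalities (log2 ratios 1.04 and 1.09, at 0.331 to 0.917 FPKM, under 0.5 FPKM in both Scr groups). The receptors with the highest levels, Tgfbr2 (27.8 to 39.3 FPKM) and Bmpr1a (13.6 to 19.7 FPKM), had log2 ratios between -0.23 and 0.34. Of the 6 receptor-regulated and common SMADs 5 reached 0.5 FPKM and 0 differed 2-fold between the genotypes. Smad1, a carrier of BMP signals, came closest at 600 mosmol/kg, with 3.52 FPKM against 1.79 FPKM in the knockout group (log2 ratio -0.94), while Smad5 had log2 ratios of 0.04 and 0.04 and Smad4 of 0.30 and 0.46.

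Bmp3 was the one other listed BMP ligand at least 2-fold higher at 300 mosmol/kg (0.335 FPKM in Scr_300 and 0.842 FPKM in Nfat5-KO_300). Of the other TGF-beta and activin ligands, Gdf15 had the highest level (71.8 to 169 FPKM; log2 ratios -0.61 and -0.51), and 0 were 2-fold changed by genotype. Among the binding partners and regulators of ID proteins, the E protein gene Tcf4 had the largest log2 ratio at 600 mosmol/kg (0.84, with 0.481 FPKM in Scr_600 and 0.94 FPKM in the knockout group). Tcf3 had log2 ratios of 0.03 and -0.21, Tcf12 -0.07 and 0.05, and the deubiquitinase gene Usp1, whose product stabilises ID proteins, 0.10 and 0.03. All 8 partners and regulators reached 0.5 FPKM and 0 were 2-fold changed in any of the 4 comparisons.

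Among the genes that store or release latent TGF-beta, Thbs1 (thrombospondin 1, an activator) went in opposite directions at the 2 osmolalities. It had 12.3 and 17.6 FPKM in the Scr_300 libraries and 30.3 FPKM in Nfat5-KO_300, but 105 and 85.4 FPKM in the Scr_600 libraries and 45 FPKM in Nfat5-KO_600. Ltbp1, which holds latent TGF-beta in the matrix, had 2.06 and 1.47 FPKM in Scr_300 and 1.5 FPKM in Nfat5-KO_300, and 6.38 and 5.21 FPKM in Scr_600 beside 1.02 FPKM in Nfat5-KO_600 (log2 ratio -2.39). Fst, which encodes the activin and BMP antagonist follistatin, was higher in Nfat5-KO_300 (3.79 FPKM against 1.69 FPKM in Scr_300) and nearly equal at 600 mosmol/kg (0.656 against 0.642 FPKM).

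**Figure D3:**
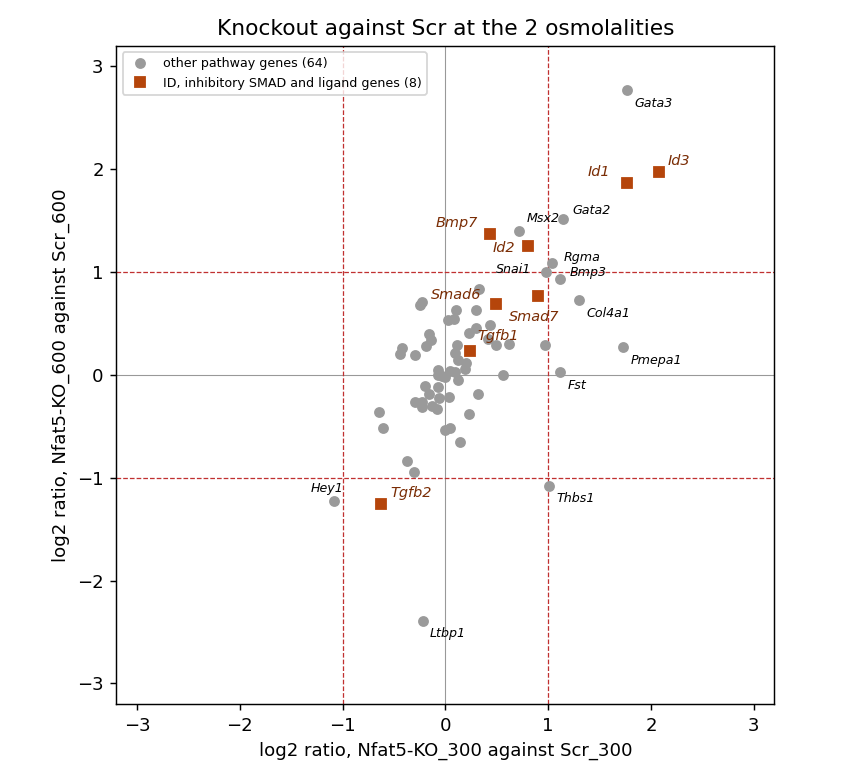
Log2 ratio of knockout to Scr at 300 mosmol/kg (x axis) and at 600 mosmol/kg (y axis) for the 8 genes (squares) and 64 other pathway genes with a ratio at both osmolalities (circles). Dashed lines mark 2-fold. Beyond it on both axes lie Id1, Id3, Gata2, Gata3 and Rgma at the upper right, Thbs1 at the lower right and Hey1 at the lower left.

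On the scale of FPKM + 0.1 the effect of hypertonicity was within 2-fold for all 8 genes in both genotypes, and in FPKM as deposited Tgfb2 was 2.05 times as high in Nfat5-KO_300 as in Nfat5-KO_600. At least 2-fold changes in either direction were seen in 0 of 8 from Scr_300 to Scr_600, beside 7.67% of all genes, and in 0 of 8 from Nfat5-KO_300 to Nfat5-KO_600, beside 10.4%. With the recovered Scr libraries, Scr_600 was compared with Scr_300 by limma (2 against 2 libraries, 11810 genes). In this test 0 of 8 genes had an adjusted p under 0.05, beside 1.5% of all genes, and 1 of 8, Bmp7, had an unadjusted p under 0.05. Bmp7 fell by 0.94 on the log2 scale (SE 0.17), with an unadjusted p of 0.00192 and a Benjamini-Hochberg adjusted p of 0.0698 by limma, and each Scr_600 library was below each Scr_300 library.

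Id3 had a limma log2 ratio of 0.55 (SE 0.46, adjusted p 0.523), and leaving out single libraries moved it between -0.08 and 1.17. Id1 had -0.26 (SE 0.26, adjusted p 0.586) and Id2 -0.28 (SE 0.19, adjusted p 0.444). The limma values for Smad6 and Smad7 were 0.43 and 0.39 (SE 0.27 and 0.24, adjusted p 0.401 and 0.388). Tgfb1 had 0.21 (SE 0.14, adjusted p 0.424) and Tgfb2 -0.35 (SE 0.45, adjusted p 0.678). For these 7 genes the change in Scr cells was not detectable with 2 libraries per group.

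Among 58 other pathway genes tested by limma, 5 had an adjusted p under 0.05, beside 1.5% of all genes, and all 5 were higher in Scr_600. They were Thbs1 (log2 ratio 2.67, SE 0.21, adjusted p 0.015), Ltbp1 (1.67, SE 0.22, adjusted p 0.041), Crim1 (1.08, SE 0.14, adjusted p 0.0377), Itgb6 (0.99, SE 0.14, adjusted p 0.0459) and Furin (0.90, SE 0.12, adjusted p 0.0401). Crim1 encodes a membrane protein that binds BMPs, Itgb6 an integrin chain that activates latent TGF-beta, and Furin the protease that cuts TGF-beta precursors. Over all genes, limma called 107 higher and 70 lower genes, and 0 in either direction when no low genes were filtered out, so these calls depend on the filter. Whether they rest on a single library cannot be told, since leaving out 1 of the 4 libraries leaves a group with a lone library. By group values, 60 listed pathway genes were compared in Scr cells, and 6 were at least 2-fold higher and 2 lower in Scr_600. Beside this, 7.67% of all genes changed at least 2-fold in either direction. In knockout cells 65 were compared, and 5 were higher and 3 lower at 600 mosmol/kg, beside 10.4% of all genes in either direction. In both genotypes the co-receptor gene Tgfbr3 was on the higher side (log2 ratios 1.49 and 1.47) and Fst on the lower side (-1.27 and -2.36).

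In knockout cells, where there is no spread to test against, Id3 had a log2 ratio of 0.53 from 300 to 600 mosmol/kg, Smad6 of 0.63 and Smad7 of 0.29. Id1 and Id2 had -0.20 and 0.14, Tgfb1 had 0.21 and Bmp7 0.01. Tgfb2 had -0.85, short of 2-fold with a pseudocount of 0.1 and past it with 0.01 (-1.01). When all groups were scaled to the same summed FPKM, the ratios of Nfat5-KO_600 to Nfat5-KO_300 moved up by 0.24 (log2) and that of Id1 became 0.04.

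**Figure D4:**
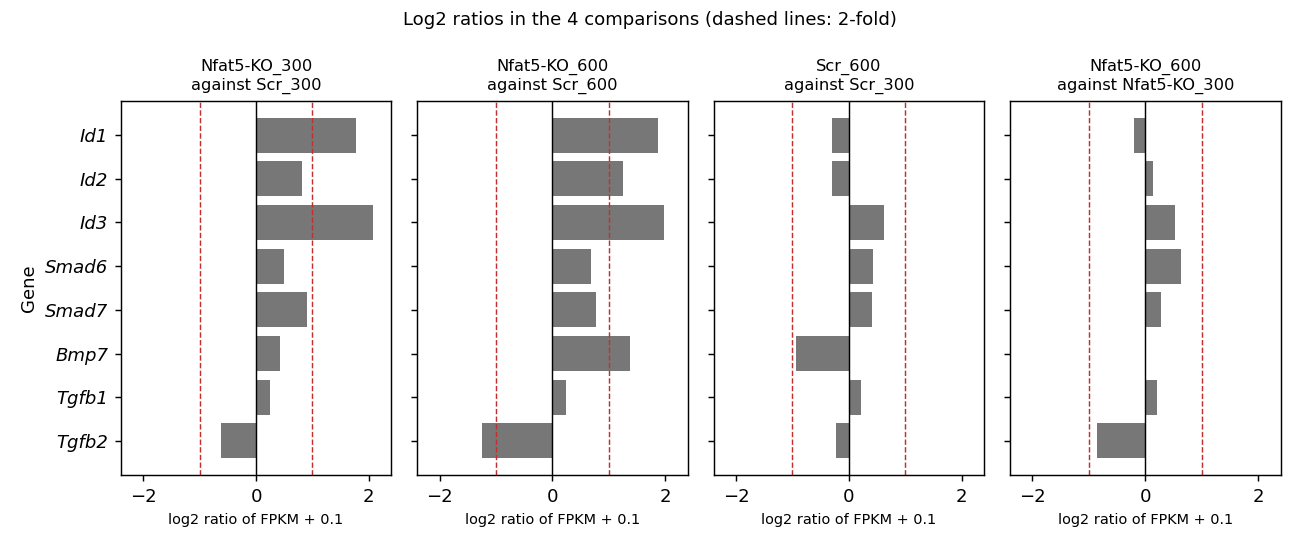
Log2 ratio of FPKM + 0.1 for the 8 genes in the 4 comparisons, with dashed lines at 2-fold. The first 2 panels (knockout against Scr) hold the bars past the dashed lines, for Id1 and Id3 in both, for Id2 and Bmp7 at 600 mosmol/kg, and for Tgfb2 in the lower direction at 600 mosmol/kg; in the last 2 panels (hypertonic against isotonic) 0 bars pass them.

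The response to hypertonicity was then set side by side between the genotypes as a difference of log2 ratios, knockout minus Scr. A difference of at least 1 in size was seen in 0 of 8 genes, beside 7.04% of all genes. Bmp7 had the largest, 0.94, higher than in 95.7% of genes, since Scr_600 was low and the knockout groups were level, and it reached 1.06 when groups were scaled to the same summed FPKM. Tgfb2 had the most negative, -0.63, with 7.67% of genes below it. Id2 had 0.44, Smad6 0.20, Id1 0.10, Tgfb1 -0.01, Id3 -0.10 and Smad7 -0.13. The knockout difference of Id1 and Id3 was thus of like size at both osmolalities, while those of Id2, Bmp7 and Tgfb2 were larger at 600 mosmol/kg. None of these differences was tested, as the knockout libraries could not be separated.

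Across the 4 groups, the genes with the pattern most like that of Id3 were Acap1, Mir1950, Pon3, Upk2 and Tiparp (distance 0.22 to 0.63 in log2 FPKM + 0.1 centred on each gene's mean, among 11833 genes). Acap1, for example, had 0.968, 1.59, 3.74 and 6.59 FPKM in Scr_300, Scr_600, Nfat5-KO_300 and Nfat5-KO_600. Id1 was the 21st nearest to Id3, Smad7 the 100th and Id2 the 105th. The genes nearest to Id1 were Gm33969, mt-Tg, Gm16178, Tmem213 and Mlh3, and Id2 was the 32nd and Id3 the 37th. Mir1950, Upk2, Gm33969, Gm16178 and Tmem213 were under 1 FPKM in both Scr groups and passed the filter only through their higher knockout level. With 4 points per gene these are descriptions of likeness and no more.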

How the data were processed

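For every gene the deposited file holds an FPKM per group, 4 in all. Per the labels and the methods of the study, the authors removed low-quality reads, mapped paired-end reads to GRCm38 (mm10) with HISAT2, used HTSeq for the reads of each gene and derived RPKM from them; versions and the annotation release are not given in the sources used here. Of 54839 rows, 2436 held no value; 311 repeated rows and 37 symbols with conflicting rows were dropped, leaving 52015 genes. An FPKM is a share of the library, so a change in highly expressed genes moves all others.

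The 10 genes and the pathway and marker lists were chosen with earlier results of these data known. A gene of the TGF-beta target list is not reported here and was left out of the counts of the lists. The genes named are the 10, Nfat5, the pathway genes that changed at least 2-fold or that have the highest levels on their list, the nearest genes to Id3 and Id1, and the extremes of the marker lists. Aqp2, Scnn1a, Furin and the neighbours of Id3 in rank were named after their values were seen. So were some pathway genes within 2-fold or under 0.5 FPKM, and markers listed at 0.

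Log2 ratios of FPKM + 0.1 were taken over genes with at least 0.5 FPKM in 1 of the 2 groups, and a single gene got a ratio where both groups had at least 0.1 FPKM. At least 2-fold counted as changed. No test had been planned, since the file holds group values. After the data were seen, reads were recovered: a group value times the union exon length (GENCODE M21, 51582 genes with 1 gene model) is a sum over libraries of whole reads times a fixed worth, which gave the effective size of all 12 libraries. The pair of whole reads was solved for each gene of the 2-library Scr groups within 3 SE of the fitted worths and 1.2 times the rounding of the file; of 21886 genes above 0 in Scr_300, 1639 had no pair and 192 several. These sizes are scaled totals, not raw read numbers, and intervals and floors (3 reads) cover counting error only. limma 3.58.1 (R 4.3.3) with a variance trend was then fitted to log2(FPKM + 0.1) of the 4 Scr libraries. Its p-values measure the spread between these libraries. The genes that could not be solved, and any error in a gene's length, are limits of this step. Unsolved genes include well-expressed ones, such as Krt18 and the pathway genes Ctgf and Nedd4l, which limma hence did not test.

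On simulated data, 99.1% of 20644 genes were solved and 100% of those correctly. All 200 of 200 changes were called by the 2-fold rule with 0 false calls. Those changes were larger than 2-fold and had no noise added, so this outcome was fixed in advance and measures no error rate. In a separate simulation limma called 145 of 200 changes of 4-fold, with 7 false calls among 10295 genes. Other steps ran in Python 3.11.15 (pandas 2.3.3, numpy 2.4.6, matplotlib 3.10.9, scipy 1.17.1). Alternatives were pseudocounts of 1 and 0.01, no filter, at least 1 FPKM, median-of-ratios factors, the same summed FPKM in every group, and, added after seeing the data, limma without the trend and without each Scr library.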

Additional observations from a re-analysis of the deposited data

How the results depend on the processing

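Across pseudocounts, filters and scalings, 235 of 238 log2 ratios and differences of single genes from group values kept their side of 2-fold. A filter does not change the value of a single gene, so the filter settings among these could not have differed. Under a scaling, 4 values within 2-fold changed sign (Bmp7 -0.02 and Id1 0.04 in Nfat5-KO_600 against Nfat5-KO_300, and the differences of Id3, 0.01, and Tgfb1, 0.10). The 3 that crossed 2-fold were Tgfb2 in Nfat5-KO_600 against Scr_600 (log2 ratio -0.53 with a pseudocount of 1), Tgfb2 in Nfat5-KO_600 against Nfat5-KO_300 (-1.01 with a pseudocount of 0.01, which makes 1 of 8 genes 2-fold changed there), and the difference of Bmp7 (1.06 with the same summed FPKM, which makes 1 of 8 genes differ by at least 1). Id3 stayed between 1.96 and 2.10 at 300 mosmol/kg and between 1.90 and 2.11 at 600 mosmol/kg, and Id1 between 1.74 and 1.79 and between 1.81 and 2.00.

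The counts over all genes moved more. The main counts were 220 higher and 310 lower (Nfat5-KO_300 against Scr_300), 491 and 481 (Nfat5-KO_600 against Scr_600), 622 and 370 (Scr_600 against Scr_300), and 812 and 534 (Nfat5-KO_600 against Nfat5-KO_300). In the same order, a pseudocount of 1 gave 48 and 87, 135 and 203, 251 and 124, and 259 and 230, since it shrinks the ratios of low genes. With no filter they were 581 and 647, 1086 and 798, 1098 and 737, and 1422 higher. With at least 1 FPKM, Nfat5-KO_300 against Scr_300 gave 146 and 198. With the same summed FPKM they were 743 and 843, 1797 and 885, 1611 and 775, and 2739 higher; this scaling shifted the log2 ratios by 0.02, 0.13, 0.13 and 0.24 and lets in lower genes. Counts of the 4 comparisons hence depend on how low genes are treated.

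For Scr_600 against Scr_300, limma called 107 higher and 70 lower genes, 52 and 17 with no trend of the variance, and 0 and 0 with no filter. Leaving out 1 Scr library gave 0 to 12 higher and 0 to 2 lower genes, the lone library being assumed to vary like the pair of the other group, and Bmp7 then had a log2 ratio of -1.13 to -0.75 (adjusted p 0.141 to 0.347). Without a library Id3 ranged from -0.08 to 1.17, Id1 from -0.62 to 0.10 and Tgfb2 from -0.98 to 0.27, so their signs depended on 1 library. With all 4 libraries, the other limma settings gave Bmp7 an adjusted p of 0.0586 to 0.161. No paired analysis was possible because the recovered Scr libraries carry no replicate number and the knockout groups are single values.

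Knockout values have no spread, and a difference between the clones within a group cannot be seen. With 2 Scr libraries per group a gene such as Id3, 2.4-fold apart in Scr_600, has a wide error, and Id4 and Bmp4 are limited by their 0 to 2 reads.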
